A study of Mus musculus with 10 samples.

Results

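Complement is a cascade of plasma and tissue proteins that tags surfaces, recruits leukocytes and can punch holes in membranes. It starts through the C1 complex, through lectins or through the alternative pathway, and all routes meet at C3. Membrane and fluid-phase regulators hold it back on the body's own cells, and the eye is known for steady low-level complement activity that such regulators keep in check. Described here are 9 complement genes in corneal endothelium of Slc4a11-/- (KO) and Slc4a11+/+ (WT) mice: the receptor gene Cr2, the components C1ra, C4b, C3, Cfb and Cfd, and the regulators Cd55, Cd59a and Serping1. They were picked by name, out of 55450 genes in the count table, because Cr2 was strongly lower in KO. The KO against WT values of these 9 genes are therefore a description. Where the fit over all genes called one of them, the call is named and no p is given.

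The 5 KO and 5 WT libraries came from C57BL/6 mice at 12 weeks of age, with the RNA of 6 peelings from 3 animals pooled in each, so the spread between libraries is one between pools. Slc4a11 encodes a transport protein of the endothelial membrane. The labels say neither how the allele was made nor the sex of the animals. Total counts ran from 36026193 to 51008996 per library. Slc4a11 itself was at 70.1 to 114 CPM (the count scaled to library size) in the KO libraries and at 3489 to 4357 CPM in the WT libraries, so each library matched its label. Of 8 corneal endothelium markers, the other 7 were present in every library, among them the water channel gene Aqp1 at 11518 to 12916 CPM in KO and 9757 to 12704 CPM in WT. By edgeR 1 of the 8 was lower in KO (Slc4a11) and 0 higher, while DESeq2 called 2 lower. The log2 fold change was above 0 for 5 of the 8. Slc4a4 was lower in KO without overlap, at 560 to 879 CPM against 938 to 1002 CPM in WT (log2 fold change -0.31, SE 0.11; edgeR adjusted p = 0.070). The peelings also held stromal keratocyte markers, whose 8 genes summed to 63617 to 85226 CPM in KO and 60911 to 92765 CPM in WT, with 2 of 8 lower in KO and none higher. Epithelial markers stood apart. Their 8 genes summed to 20.5 CPM in KO 3, 170 CPM in KO 4, 515 CPM in KO 2, 1708 CPM in KO 1 and 3364 CPM in KO 5, against 14.3 to 145 CPM in the WT libraries. Of the 8, 7 were higher in KO by the edgeR test, against 1 by limma-voom. Over all genes tested, edgeR called 7.59% higher and 7.73% lower.

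The sequences before the starts of Cr2 and Cd55 are shown because these are the chosen genes whose KO and WT libraries did not overlap. RefSeq promoter windows were found for 6 of the 9 genes, and C4b, Cfb and Serping1 had none. Both lie on the minus strand of chromosome 1 in GRCm38.p6. Each line gives the 250 bases before the RefSeq start, with capitals at the motif matches named below.
Cr2, chr1:195176720-195176969: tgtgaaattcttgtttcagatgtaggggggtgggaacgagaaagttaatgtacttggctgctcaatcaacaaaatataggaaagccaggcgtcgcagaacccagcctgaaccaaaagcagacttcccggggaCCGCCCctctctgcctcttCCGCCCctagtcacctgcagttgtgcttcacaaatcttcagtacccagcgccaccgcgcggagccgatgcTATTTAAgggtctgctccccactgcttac
Cd55, chr1:130462745-130462994: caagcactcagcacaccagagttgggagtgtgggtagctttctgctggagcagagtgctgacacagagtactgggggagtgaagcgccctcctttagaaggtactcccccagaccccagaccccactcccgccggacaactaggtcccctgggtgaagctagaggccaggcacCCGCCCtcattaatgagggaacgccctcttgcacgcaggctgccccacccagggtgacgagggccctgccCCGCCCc

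The windows were searched on both strands for the TATA box TATAAA, its variant TATTTAA, the E-box CACGTG, the STAT-type motif TTCNNNGAA, the GC box CCGCCC and the core of the interferon-stimulated response element, of which none contains another. Cr2 held TATTTAA from base 29 to base 23 before its start, a match found in 4.18% of the 32851 promoter windows in the table. It also held CCGCCC at bases 118 to 113 and 99 to 94. Cd55 held CCGCCC at bases 77 to 72 and 7 to 2, and 32.7% of all windows hold that motif. The other motifs had no match in these 2 windows, where the whole table held TATAAA in 12.4%, CACGTG in 6.02%, TTCNNNGAA in 7.02% and the interferon element core in 2.98% of windows.

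Cr2 encodes complement receptor 2, which binds fragments of C3. In mice the gene also gives rise to complement receptor 1 by splicing, and counts per gene cannot tell the products apart. Cr2 (ENSMUSG00000026616.15) spans chr1:195136811-195176716 in GRCm38. It was at 5.79, 6.85, 4.37, 3.57 and 3.15 CPM in KO 1 to KO 5, against 26.9, 28.5, 28.1, 19.0 and 22.8 CPM in WT 1 to WT 5. Every KO library was below every WT library. The means were 4.75 ± 1.55 CPM in KO and 25.1 ± 4.06 CPM in WT (SD, n = 5 each), a log2 fold change of -2.39 (SE 0.20) or a 5.26-fold lower level in KO. These are the values for which the set was picked. The level rested on 133 to 325 counts per KO library and 908 to 1273 counts per WT library. The lowest Cr2 level was in KO 5, the library with the most epithelial marker transcripts, and the next lowest in KO 4. KO 5 also had the lowest corneal endothelium marker sum, at 21173 CPM, against 24148 to 25490 CPM in KO 1 to KO 4. In KO 4 that sum was 24848 CPM. The part of the endothelial content in the Cr2 level of KO 5 was not tested. The log2 fold change of Cr2 was -2.65 when KO 3 and KO 4 alone stood for the KO group, and -2.49 with the epithelial markers as a covariate. In bulk peelings, fewer cells that make a transcript and less transcript per cell cannot be told apart.

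In mice Cr2 is best known from B cells and follicular dendritic cells, so B cell markers were looked at beside it. They were near 0: the 8 genes summed to 0.456 to 1.02 CPM in KO and 0.494 to 0.671 CPM in WT, most of it Cd79b. Fcer2a and Blk, both B cell genes, had no count in any library. The part of any one cell type in the Cr2 level was not tested.

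Cr2 sits in a cluster of complement regulator genes on chromosome 1, and 25 other genes have a start within 500 kb of it. Of these, 6 were tested and edgeR called 0 lower in KO, where it called 7.73% of all genes tested lower and 7.59% higher. Of the 6, 2 were lower at an unadjusted p under 0.05, DESeq2 called 1 lower (Cd46) and limma-voom 0. Cr1l, the rodent regulator also called Crry, lies on the lower-coordinate side of Cr2, with 39.4 kb between their lower ends, and was at 135 ± 3.74 CPM in KO and 142 ± 8.23 CPM in WT (SD, n = 5; log2 fold change -0.08, SE 0.05; edgeR adjusted p = 0.35). Cd46, a cofactor for C3b cleavage, was at 0.584 ± 0.148 CPM in KO and 1.34 ± 0.854 CPM in WT (log2 fold change -1.20, SE 0.41; edgeR adjusted p = 0.066), with WT 1 and WT 4 among the KO libraries. Cd46 was called without WT 1 (-1.37), without WT 4 (-1.40) and with the keratocyte covariate (-1.70). A330023F24Rik, a noncoding gene on the other strand that covers part of Cd46, was at 1.43 ± 0.604 CPM in KO and 3.05 ± 1.73 CPM in WT (log2 fold change -1.09, SE 0.41; edgeR adjusted p = 0.091). Cd34, a sialomucin, was at 104 ± 8.31 CPM in KO and 117 ± 18.2 CPM in WT (edgeR adjusted p = 0.25), and its antisense gene Gm16897 at 0.642 ± 0.174 CPM in KO and 0.704 ± 0.0720 CPM in WT (edgeR adjusted p = 0.67). The one gene that edgeR called in the window was Gm37783, a gene of no assigned class that was higher in KO (log2 fold change 1.34, SE 0.33; edgeR adjusted p = 0.017), at 0.605 ± 0.136 CPM in KO and 0.233 ± 0.105 CPM in WT.

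Across the 10 libraries the genes whose profile was closest to that of Cr2 were Frem3, Ntrk3, Vldlr, Lancl3 and Atp7b, in that order. Likeness was the root mean square difference between log2 CPM profiles, each centred on its own mean, over the 14762 genes that averaged 1 CPM or more. It was 0.21 for Frem3, a basement membrane protein gene, 0.32 for Ntrk3, a neurotrophin receptor gene, and 0.39 for Vldlr, a lipoprotein receptor gene. It was 0.42 for both Lancl3 and the copper transporter gene Atp7b. Frem3 was much more abundant than Cr2, at 144 ± 35.2 CPM in KO and 826 ± 20.5 CPM in WT (SD, n = 5). All 6 genes were lower in every KO library than in any WT library. This follows from the choice, since the 5 were taken for their likeness to Cr2 over these same libraries.

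**Figure D1:**
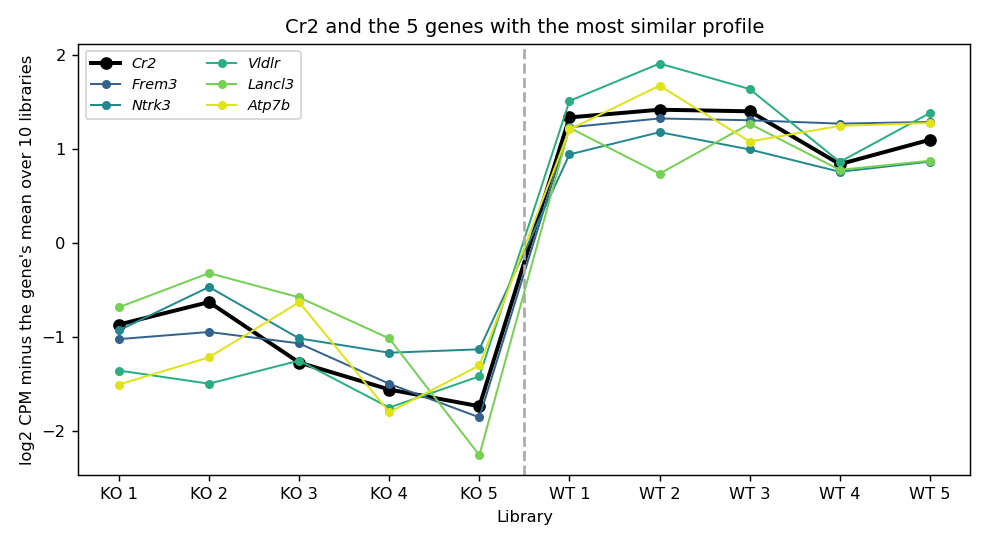
Profiles of Cr2 (black) and the 5 genes most like it, with the 10 libraries on the x axis (KO left of the dashed line, WT right) and log2 CPM minus each gene's mean on the y axis. All 6 genes lie below their mean in the 5 KO libraries and above it in the 5 WT libraries, which follows from the choice by likeness to Cr2.

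Cd55 encodes decay-accelerating factor, a membrane protein that breaks up C3 convertases. Cd55 (ENSMUSG00000026399.12) lies at chr1:130439027-130462744. It was at 27.1, 27.4, 23.6, 27.1 and 20.6 CPM in KO 1 to KO 5, against 28.0, 37.8, 42.1, 31.8 and 33.3 CPM in WT 1 to WT 5. The groups did not overlap, but WT 1 lay within 1 CPM of KO 1, KO 2 and KO 4. The means were 25.2 ± 3.02 CPM in KO and 34.6 ± 5.47 CPM in WT (SD, n = 5; log2 fold change -0.46, SE 0.11). Its log2 fold change was -0.44 when KO 3 and KO 4 alone stood for the KO group and -0.48 with the epithelial covariate, and in both cases the gene no longer passed the threshold. Cd55b, a second decay-accelerating factor gene beside it, was much rarer, at 1.05 ± 0.253 CPM in KO and 1.79 ± 0.261 CPM in WT, and fell in KO without overlap (log2 fold change -0.76, SE 0.18; edgeR adjusted p = 0.016). Of the 36-base stretches of Cd55 transcripts, 10.1% also occur in Cd55b. Of those of the rarer Cd55b, 28.8% occur in Cd55, so reads of the copies may be exchanged in part. Cd55b was not called with KO 3 and KO 4 alone (-0.79) or with the epithelial covariate (-0.68).

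The other regulators among the 9 genes differed little between the genotypes. Cd59a encodes a membrane-anchored inhibitor of the terminal attack complex. Cd59a was at 243, 226, 222, 221 and 201 CPM in KO 1 to KO 5, against 203, 223, 206, 186 and 210 CPM in WT 1 to WT 5, and the groups overlapped. Its log2 fold change was 0.12 (SE 0.07). Its neighbour Cd59b was at 13.3 ± 0.830 CPM in KO and 12.8 ± 1.28 CPM in WT (SD, n = 5; log2 fold change 0.06, SE 0.08; edgeR adjusted p = 0.65).

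Serping1 encodes C1 inhibitor, which blocks the C1 proteases and also the kallikrein system. Serping1 was at 1171, 1384, 1111, 1101 and 1400 CPM in KO 1 to KO 5, against 1235, 878, 848, 1221 and 1027 CPM in WT 1 to WT 5. All KO libraries were above WT 2, WT 3 and WT 5, and WT 1 and WT 4 lay among them. The log2 fold change was 0.24 (SE 0.12). It was 0.092 with KO 3 and KO 4 alone, and 0.43 with the keratocyte markers as a covariate, where it passed the threshold. Of the 9 genes, Cd59a and Serping1 share chromosome 2 with Slc4a11, at 26.6 and 45.9 Mb from it.

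C1ra encodes the C1r protease of the classical pathway. C1ra was at 381, 430, 372, 351 and 418 CPM in KO 1 to KO 5, against 431, 357, 345, 492 and 417 CPM in WT 1 to WT 5, and the KO range lay within the WT range. The log2 fold change was -0.07 (SE 0.10). Within each genotype C1ra was highest in the library with the most keratocyte marker transcripts, KO 2 and WT 4, and so were C1rb, C1s1, C1s2, C4b and C4a. C1qc, a gene of macrophages, was highest in the same libraries. The genes of the other C1q chains, C1qa and C1qb, and the macrophage marker sum were highest in KO 2 and WT 1. C1ra was lowest in KO 4 and WT 3, and the keratocyte sum in KO 4 and WT 2. Of the 36-base stretches of C1ra transcripts, 54.4% also occur in C1rb, a copy that was at 151 ± 13.6 CPM in KO and 163 ± 24.1 CPM in WT (SD, n = 5; log2 fold change -0.11, SE 0.10; edgeR adjusted p = 0.49). Summed over both copies the level was 542 ± 46.1 CPM in KO and 571 ± 83.6 CPM in WT.

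C4b encodes C4, which the C1 and lectin proteases cleave to build a C3 convertase. C4b (ENSMUSG00000073418.4) lies in the major histocompatibility region at chr17:34728380-34743882. It was at 7.92, 10.9, 5.89, 6.82 and 7.65 CPM in KO 1 to KO 5, against 14.97, 14.3, 8.90, 19.2 and 12.0 CPM in WT 1 to WT 5. Only KO 2 and WT 3 overlapped, since KO 2 lay above WT 3. The means were 7.82 ± 1.87 CPM in KO and 13.9 ± 3.83 CPM in WT (SD, n = 5; log2 fold change -0.83, SE 0.20). The log2 fold change was -1.12 with KO 3 and KO 4 alone and -0.62 with the keratocyte markers as a covariate. The near copy C4a shares 44.3% of the 36-base stretches of C4b. C4a also fell, to 1.81 ± 0.498 CPM in KO, against 3.07 ± 0.565 CPM in WT (log2 fold change -0.76, SE 0.20; edgeR adjusted p = 0.025), with KO 2 above WT 3. Its call was lost without KO 1 (-0.72), without WT 2 (-0.74), without WT 4 (-0.68) and with the keratocyte covariate (-0.64). Summed over both copies, C4 transcripts were at 9.64 ± 2.32 CPM in KO and 17.0 ± 4.38 CPM in WT.

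**Figure D2:**
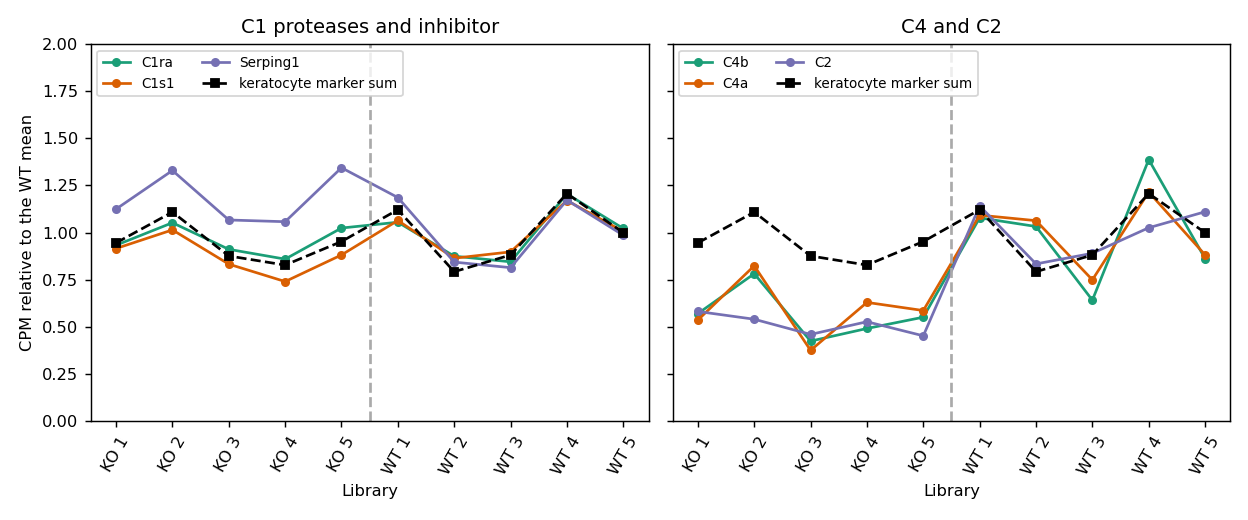
CPM of C1ra, C1s1 and Serping1 (left) and of C4b, C4a and C2 (right) relative to each gene's WT mean, with the summed keratocyte markers as a dashed line, in the KO libraries (left of the vertical line) and the WT libraries (right). C1ra and C1s1 are highest where the dashed line is highest in each genotype (KO 2 and WT 4), Serping1 is highest in KO 5 and WT 1, and C4b, C4a and C2 lie below it in every KO library.

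C3, the centre of the cascade, was rare. C3 was at 1.29, 1.43, 0.695, 1.21 and 1.59 CPM in KO 1 to KO 5, against 0.5997, 0.179, 0.273, 2.18 and 0.770 CPM in WT 1 to WT 5. WT 4 had the highest level of all and the other 4 WT libraries were at or below 0.770 CPM. The means were 1.24 ± 0.338 CPM in KO and 0.800 ± 0.807 CPM in WT (SD, n = 5; log2 fold change 0.62, SE 0.52), and the value changed with single libraries. The log2 fold change was 1.44 without WT 4 and 1.74 with the keratocyte covariate, past the threshold in both. It was 0.36 without WT 2, 0.40 without WT 3 and 0.23 with KO 3 and KO 4 alone.

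Cfb encodes factor B, the protease of the alternative pathway convertase. It had too few counts to be tested. Cfb was at 0.954, 0.421, 0.0435, 0.429 and 0.166 CPM in KO 1 to KO 5, against 0.0545, 0.134, 0.0455, 1.49 and 0.217 CPM in WT 1 to WT 5, and the groups overlapped widely. WT 4 was again the highest. These levels may be counted low, because 79.5% of the exon bases of Cfb also belong to Gm20547, a gene annotated on the same strand over Cfb and C2. Gm20547 had 103 to 167 counts per KO library and 182 to 308 counts per WT library and fell without overlap, to 3.07 ± 0.568 CPM in KO, against 5.62 ± 0.924 CPM in WT (SD, n = 5; log2 fold change -0.88, SE 0.15; edgeR adjusted p = 0.0031). The counts do not show which of these genes gave its reads.

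Cfd encodes factor D, or adipsin, which cleaves factor B and is abundant in fat. Cfd had 0 counts in all 10 libraries, out of 439356482 counts in all. A count of 0 allows up to 0.0593 to 0.0818 CPM per library, taking 3 counts as the limit. No 36-base stretch of its transcripts occurs in another gene, and no other gene covers its exons. The annotation used for the counting is not stated, so a counting effect and a lack of transcripts cannot be told apart. Of 8 adipocyte markers only Lpl, which other cells also make, was tested, at 6.73 ± 2.29 CPM in KO and 5.84 ± 1.51 CPM in WT (SD, n = 5). The other 7 were near 0, and Pck1 had no count in any library.

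**Figure D3:**
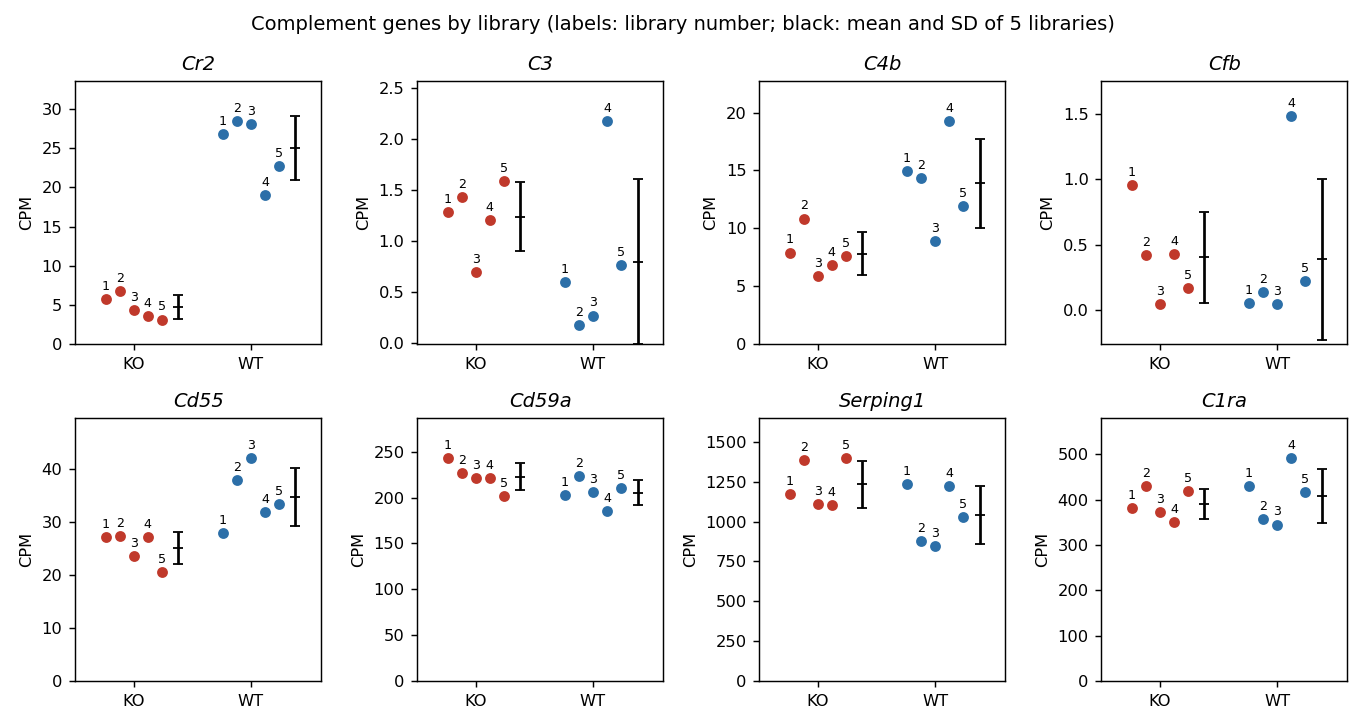
CPM of the 8 chosen genes with any count in each KO library (red, left) and WT library (blue, right), with the library number beside each point and the mean ± SD of 5 libraries in black. Cr2 and Cd55 show no overlap between KO and WT, and WT 4 is the highest library for C3, C4b, Cfb and C1ra.

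Of the 9 genes, 7 had enough counts to be tested. By the edgeR rule (adjusted p under 0.05 over 17729 genes) 3 of these 7 were called lower in KO (Cr2, C4b and Cd55) and 0 higher, where 15.3% of all genes tested were called, 7.73% lower and 7.59% higher. The CPM ranges of KO and WT did not overlap for 2 of the 7, against 12.0% of all genes. Nothing follows from these counts about the set, which was picked on the same contrast. The median log2 fold change of the 7 was -0.07, against 0.00 over all genes tested.

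Per kilobase of merged exons, Serping1 was the most abundant of the 9 genes, at 531 ± 63.3 CPM per kb in KO and 448 ± 78.7 CPM per kb in WT (SD, n = 5). In WT it was followed by C1ra (137 ± 20 CPM per kb) and Cd59a (114 ± 7.40 CPM per kb), whose WT ranges overlapped. Cd55 (7.13 ± 1.13 CPM per kb) came next, then Cr2 (3.09 ± 0.500 CPM per kb) and C4b (2.44 ± 0.672 CPM per kb), which also overlapped. C3 and Cfb stood at 0.156 and 0.137 CPM per kb and could not be ordered. In KO, Cr2 at 0.585 ± 0.191 CPM per kb came below C4b at 1.37 ± 0.328 CPM per kb. With the mean transcript length in place of the merged exons, Cd59a (148 CPM per kb) came before C1ra (137 CPM per kb) in WT, and the rest of the order was the same. The levels themselves depend on that choice: by transcript length WT levels were 721 CPM per kb for Serping1, 20.6 for Cd55, 12.1 for Cr2, 6.04 for C4b, 0.480 for C3 and 0.221 for Cfb.

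Beyond these 9 genes, a list of 46 other complement genes was examined, of which 29 had enough counts to be tested. In KO 6 of the 29 fell (20.7%, against 7.73% of all genes tested), 3 rose (10.3%, against 7.59%) and 20 did not pass. Their median log2 fold change was -0.11, against 0.00 over all genes tested. Among the 6 that fell are C4a and Cd55b, copies of the chosen genes C4b and Cd55. They share 39.6% and 28.8% of their 36-base stretches with them, so these values are not independent of the chosen set.

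The convertase component C2 had the largest change among those that fell. C2, which with C4 forms the C3 convertase of the classical and lectin pathways, was at 6.49, 6.03, 5.13, 5.88 and 5.04 CPM in KO 1 to KO 5, against 12.7, 9.30, 9.93, 11.4 and 12.4 CPM in WT 1 to WT 5. All KO libraries were below all WT libraries (log2 fold change -0.97, SE 0.11; edgeR adjusted p = 1.9e-04). C2 lies at chr17:34862604-34898265, beside Cfb, and 42.8% of its exon bases are shared with Gm20547. Summed, Cfb, C2 and Gm20547 were at 9.18 ± 1.47 CPM in KO and 17.2 ± 2.53 CPM in WT (SD, n = 5). Cfp moved the other way. It encodes properdin, which stabilises the alternative convertase and is made by myeloid cells, and it rose to 3.87 ± 1.35 CPM in KO, against 1.75 ± 0.413 CPM in WT, without overlap (log2 fold change 1.14, SE 0.23; edgeR adjusted p = 0.0070).

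In the C1 complex edgeR called 0 of 7 genes tested, where it called 7.73% of all genes tested lower and 7.59% higher. Of the 7, 1 was lower at an unadjusted p under 0.05, DESeq2 called 1 lower (C1rl) and limma-voom 0. C1s1, the partner protease of C1r, was at 1071 ± 124 CPM in KO and 1222 ± 152 CPM in WT (SD, n = 5; log2 fold change -0.19, SE 0.10; edgeR adjusted p = 0.22). C1s2 was at 156 ± 20.6 CPM in KO and 182 ± 24.2 CPM in WT (edgeR adjusted p = 0.19). Of the exon bases of C1s1, 18.4% lie opposite Gm16567, and without the strand setting of the counting their reads cannot be told apart. C1qa, C1qb and C1qc, the chains of C1q that macrophages make, had log2 fold changes of 0.24, 0.25 and 0.19 (SE 0.19, 0.17 and 0.18). C1rl, a C1r-like protease gene, was at 106 ± 6.97 CPM in KO and 118 ± 3.64 CPM in WT, without overlap (edgeR adjusted p = 0.083). In the lectin pathway 2 of 8 genes were tested. Masp1 gives some, not all, of the lectin-bound proteases. It fell to 165 ± 11.3 CPM in KO, against 210 ± 1.73 CPM in WT, without overlap (log2 fold change -0.34, SE 0.06, edgeR adjusted p = 0.0020). The collectin Colec11 was at 2.12 ± 0.472 CPM in KO and 1.84 ± 0.0477 CPM in WT (edgeR adjusted p = 0.41). Among those not tested, Mbl1 and Fcnb had no count in any library. Masp2, a separate protease gene of the pathway, had at most 2 counts in a library and was not tested either.

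The terminal pathway was nearly silent. Of 7 genes, 2 were tested and 0 called by edgeR, DESeq2 or limma-voom, and 0 had an unadjusted p under 0.05. Over all genes tested, edgeR called 15.3%. C8g, a lipocalin-like subunit, was at 2.63 ± 0.174 CPM in KO and 2.57 ± 0.202 CPM in WT (SD, n = 5; edgeR adjusted p = 0.86), and C7 at 0.281 ± 0.133 CPM in KO and 0.455 ± 0.237 CPM in WT (edgeR adjusted p = 0.31). Hc, the mouse C5 gene, C6, C8a, C8b and C9 were below the filter, and C8a had no count at all.

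Among receptors other than Cr2, 2 of 6 tested rose and 0 fell, where 7.59% of all genes tested were higher and 7.73% lower. C5ar1, the C5a receptor of myeloid cells, was at 5.72 ± 1.24 CPM in KO and 3.71 ± 0.891 CPM in WT (SD, n = 5; log2 fold change 0.63, SE 0.19; edgeR adjusted p = 0.047), with overlap between the groups. Its call was lost without any one of KO 2 to KO 5 or WT 2 to WT 5 (0.50 to 0.69), with KO 3 and KO 4 alone (0.55), with upper quartile scaling (0.64) and with the epithelial (0.58) or keratocyte (0.69) covariate. Cd93 encodes a lectin-like membrane protein first taken for a C1q receptor. It was at 3.15 ± 0.425 CPM in KO and 2.01 ± 0.509 CPM in WT (log2 fold change 0.65, SE 0.18, edgeR adjusted p = 0.032). The groups did not overlap, but only just, with KO 4 at 2.496 CPM and WT 1 at 2.481 CPM. Cd93 lies at chr2:148436640-148443563, on the same chromosome as Slc4a11 (chr2:130684113-130697519). The Cd93 call was lost without KO 1, KO 2, KO 5, WT 2 or WT 5 (0.60 to 0.67) and with KO 3 and KO 4 alone (0.51). It was also lost with the epithelial covariate (0.62) and with the replicate number as a block (0.68). Itgam, the alpha chain of complement receptor 3, was uneven in KO, at 26.6, 18.1, 7.04, 10.7 and 21.2 CPM in KO 1 to KO 5, against 7.92 to 11.1 CPM in WT (edgeR adjusted p = 0.083). It shares 68.7% of its exon bases with another gene on its strand. C3ar1, the C3a receptor, was at 7.30 ± 1.08 CPM in KO and 6.83 ± 1.24 CPM in WT (edgeR adjusted p = 0.66).

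Markers of other cell types were set beside these receptors and Cfp. The 8 macrophage and leukocyte markers summed to 269 to 423 CPM in KO and 215 to 325 CPM in WT. For them edgeR and limma-voom called 0 of 8, where edgeR called 15.3% of all genes tested. Of the 8, 7 had a log2 fold change above 0 (median 0.29), 3 were higher at an unadjusted p under 0.05 and DESeq2 called 2 higher. Cd74 was at 0.48 (SE 0.16; edgeR adjusted p = 0.062) and Mrc1 at 0.44 (SE 0.15; edgeR adjusted p = 0.067). Of 7 vessel markers tested, edgeR called 1 higher in KO (Tie1) and 1 lower (Kdr), against 7.59% and 7.73% of all genes tested. DESeq2 called 4 of these markers higher and 1 lower. Their log2 fold changes were above 0 for 6 of 7 (median 0.95). The part of these cells in the values of Cfp, C5ar1 and Cd93 was not tested.

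Among the 9 tested regulators not in the chosen set, edgeR called 3 lower and 0 higher (7.73% and 7.59% of all genes tested). At an unadjusted p under 0.05, 4 were lower and 0 higher, and DESeq2 called 4 lower, with Cd46 as the fourth. The 3 were Cd55b, Susd4, a membrane protein that inhibits convertases, and Clu, which encodes clusterin, a chaperone that also blocks the terminal complex. Susd4 was at 72.3 ± 2.2 CPM in KO and 91.7 ± 6.74 CPM in WT (SD, n = 5; log2 fold change -0.34, SE 0.06; edgeR adjusted p = 0.0022). Clu was at 859, 889, 769, 853 and 775 CPM in KO 1 to KO 5, against 1167, 1168, 952, 1077 and 1141 CPM in WT 1 to WT 5. Both genes differed without overlap, and Clu had a log2 fold change of -0.41 (SE 0.07; edgeR adjusted p = 0.0036). With KO 3 and KO 4 alone Clu was at -0.44 and not called. Cpn1, a carboxypeptidase that trims anaphylatoxins, was at 2.62 ± 0.521 CPM in KO and 2.94 ± 0.487 CPM in WT (edgeR adjusted p = 0.52).

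**Figure D4:**
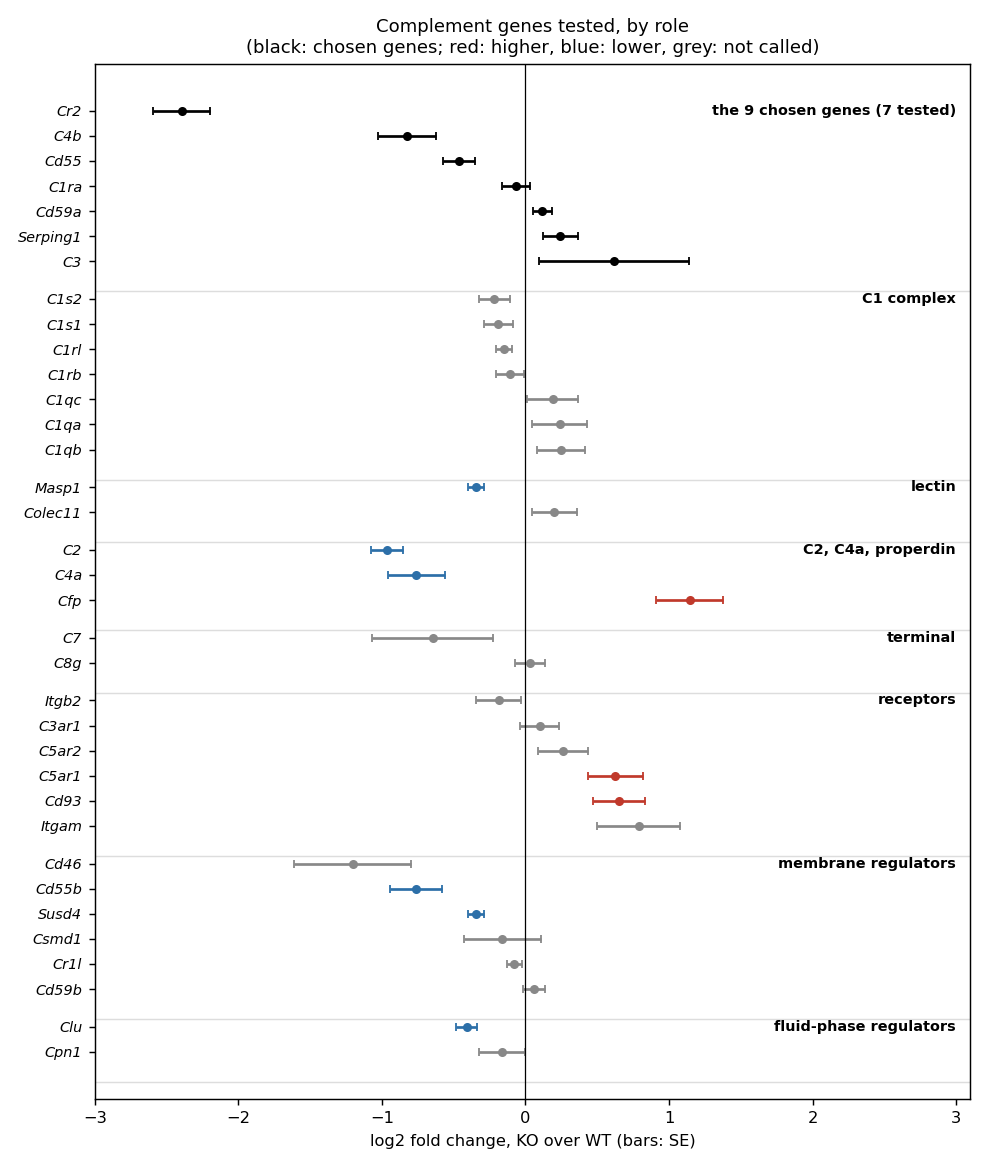
Log2 fold change of KO over WT with its SE for complement genes that were tested, grouped by role; black marks the 7 chosen genes and red, blue and grey the others that were higher, lower or not called in KO. Cr2 has the lowest value at -2.39, followed by Cd46 at -1.20 (not called). C2, C4a and C4b lie between -0.97 and -0.76, and so does Cd55b.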

How the data were processed

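Messenger RNA of corneal endothelial peelings was measured in 10 libraries, 5 per genotype, from pools of 6 peelings of 3 animals. The authors deposited a table of raw read counts per gene and library (whole numbers that sum to a different total in each library). Per the submitters' processing notes, the tools were HISAT2 2.1.0, Trim Galore 0.6.4 with cutadapt 2.4, and Subread 1.6.4 with its featureCounts, and the genome was GRCm38.p6. The kit was stranded, per the labels' protocols. For the counting, the strand setting, the treatment of reads that match several genes and the annotation are not stated in these sources.

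Each of the 55450 gene identifiers matched the GENCODE M21 annotation. After filterByExpr (count of at least 10, total of at least 15) and TMM scaling, KO was compared with WT by the quasi-likelihood F test of edgeR 4.0.16 in R 4.3.3, with no covariate. Calls were made where the p adjusted over all 17729 tested genes by Benjamini-Hochberg was under 0.05. The test was checked on simulated data. CPM is the count scaled to the TMM library size. Standard errors were derived from the same model, as the size of its unshrunk log2 fold change divided by the square root of F. The replicate numbers were not used in the fit: deviations of same-numbered KO and WT libraries from their group means did not go together, and the labels state no shared litter or day. Library pairs of a genotype all differed by more than counting noise, at 14.7 to 87.5 chi-square units per degree of freedom.

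The genes, the wider complement list, the marker lists, the tests and the alternatives were chosen with earlier results of these data known. Of the wider list, the genes named are those called, the 2 most abundant tested genes not called in each role and the close copies of the 9 genes, with the tested neighbours of Cr2 and the 5 genes most like it. Gm20547, C1qa, C1qb, C1qc, C1rl and the genes that were not tested were named after their values were seen. Alternatives were DESeq2 1.42.0, limma-voom with limma 3.58.1, other scalings and filters, a robust fit, the replicate number as a block, marker covariates, the KO group cut to KO 3 and KO 4, and each library left out. Reads carry no molecular identifiers, so limits from counts cover counting error only. Some genes of these lists are counted in the list totals but not reported here by name.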

Additional observations from a re-analysis of the deposited data

Results flagged for a closer look

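Cfb in WT 4 stood apart from its group at 1.49 CPM, where the other 4 WT libraries were at 0.0455 to 0.217 CPM. It was the only such value among 38 groups of 5 libraries (20 complement genes, where the counts were not all 0), and chance flags about 1 group in 20. WT 4 was also the highest WT library for C3, at 2.18 CPM.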

How the results depend on the processing

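With 22 alternatives, the log2 fold change of Cr2 ranged from -2.65 to -2.27, that of C4b from -1.12 to -0.62 and that of Cd55 from -0.55 to -0.38. C1ra was above 0 with the keratocyte covariate (0.087) and without WT 4 (0.0125), against -0.07 with all libraries and -0.12 to 0.0125 with a library left out. The count of other complement genes that rose (3) was 1 under the replicate block, with the epithelial covariate and with KO 3 and KO 4 alone as the KO group, and 1 to 3 with a library left out (1 without KO 2, KO 5, WT 2 or WT 5). The count that fell (6) was 4 to 8 in all alternatives. Over all genes, 1346 rose and 1370 fell, and with scaling to total counts 1555 and 1054. With the epithelial covariate 531 rose and 657 fell, and with KO 3 and KO 4 only 527 rose and 578 fell. With a library left out 836 to 1532 rose (895 without KO 1, 836 without WT 3, 850 without WT 5). The replicate numbers share only a number: under the replicate block 750 genes rose, C5ar1 (0.63) and Cd93 (0.68) lost their calls, and 0 of 5 KO libraries correlated best with the WT library of its number. The cause of these changes was not tested. C3 ranged from 0.23 to 1.74. Genes below the filter on low counts, among them Cfb, Cfd and most of the terminal pathway, have no test at this depth.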
